A study of Mus musculus with 2 samples.

Results

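Tnf-positive tumor neutrophils were taken here as neutrophils of subcutaneous Lewis lung carcinoma (LLC) tumors in which at least 1 unique molecular identifier (UMI, a tag that counts 1 captured mRNA molecule) of Tnf was found. A barcode counted as a neutrophil when it held at least 200 genes, more than 500 UMIs and under 10% mitochondrial UMIs, when S100a8 and S100a9 made up at least 1% of its UMIs, and when it held at most 1 UMI over 8 genes of other lineages (C1qa, C1qb, C1qc, Ccr2, Ms4a6c, Cd79a, Cd3e and Krt8). Cells with 10 or more UMIs of the granule genes Camp, Ngp and Ltf, or 3 or more UMIs of the interferon-response genes Ifit1, Ifit3, Isg15 and Rsad2, were set aside. The rule found 201 Tnf-positive cells among 1531 neutrophils, out of 6630 barcodes in all. The other 1330 neutrophils held no Tnf UMI and are called Tnf-zero.

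The cells came from Smad3+/+ (Smad3-WT) and Smad3-/- (Smad3-KO) C57BL/6 mice aged 8 to 12 weeks, which carried the same LLC cells, a mouse lung carcinoma line. CD11b+Ly6G+ cells were sorted by flow cytometry, tumors were pooled within a genotype, and 1 library was made per genotype with a 5′ droplet kit. The Smad3-WT library held 4116 barcodes and 23951400 UMIs, and gave 108 Tnf-positive and 1082 Tnf-zero neutrophils. The Smad3-KO library held 2514 barcodes and 4214290 UMIs, and gave 93 Tnf-positive and 248 Tnf-zero neutrophils. The Smad3 deletion is germline, so tumor neutrophils and the other host cells lacked Smad3 while the injected LLC cells did not. Smad3 UMIs numbered 3 in Smad3-WT and 22 in Smad3-KO Tnf-positive cells, and since the disrupted exons lie toward the 3′ end of the gene, reads from the 5′ end do not check the genotype. Genotype, library preparation and mouse sex cannot be told apart, because Xist was found at 10 UMIs in the Smad3-KO and at 0 in the Smad3-WT Tnf-positive cells, and the Y-linked gene Ddx3y at 0 and 16. The libraries shared 73 barcode sequences. With 1 library per genotype no difference between cells was tested, and all values below describe these 2 libraries, with exact intervals at the 95% level that cover counting error only.

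TNF is made by activated myeloid cells as a membrane-bound trimer, is released by the protease ADAM17 and acts through the receptors TNFR1 (Tnfrsf1a) and TNFR2 (Tnfrsf1b). Both receptors recruit TRAF adaptors and switch on the transcription factor NF-κB, which drives cytokine, chemokine, adhesion and survival genes and also its own inhibitors, such as IκBα (Nfkbia) and A20 (Tnfaip3). In tumor neutrophils Tnf, Icam1 and Nos2 are commonly used as marks of the antitumor (N1) state, and Ccl2 and Mrc1 as marks of the tumor-promoting (N2) state.

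The label was first checked against marker genes. Csf3r, the receptor for G-CSF, was found in 57.4% of Tnf-positive and 54.8% of Tnf-zero cells of the Smad3-WT library, and in 53.8% and 56.9% in the Smad3-KO library. Ly6g, which encodes the antigen used for the sort, was found in 0.926% and 1.48% in Smad3-WT and in 4.30% and 10.5% in Smad3-KO, and Mmp9, a granule enzyme of mature neutrophils, in 62.0% and 44.6% and in 16.1% and 30.2%. Neutrophil markers were thus present in the Tnf-positive cells, but at unequal shares, with Ly6g and Mmp9 found in a smaller share of Tnf-positive than of Tnf-zero cells in Smad3-KO. Icam1, an adhesion molecule, was found in 18.5% of Smad3-WT Tnf-positive cells (interval 11.7 to 27.1) and in 34.4% of Smad3-KO ones (24.9 to 45.0), against 3.23% and 14.5% of Tnf-zero cells. Il1a, the cytokine IL-1α, was found in 7.41% (3.25 to 14.1) against 2.22% (1.43 to 3.28) in Smad3-WT and in 44.1% (33.8 to 54.8) against 20.6% (15.7 to 26.1) in Smad3-KO, with its 15 UMIs in the Smad3-WT Tnf-positive cells spread over 8 cells. Nos2, the inducible nitric oxide synthase, was found in 1 of 108 Tnf-positive cells of the Smad3-WT library and in 6 of 93 of the Smad3-KO library, and in 4 of 1082 and 10 of 248 Tnf-zero cells. Icam1 in both libraries and Il1a in Smad3-KO thus went with Tnf, the Smad3-WT intervals of Il1a overlapped, and Nos2 was too rare to mark these cells. Of the N2 genes, Ccl2 was found at 5 UMIs in all Smad3-WT Tnf-positive cells and at 1 in the Smad3-KO ones, Mrc1 at 1 and 0, and Vegfb at 0 in both.

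Tnf-positive cells made up 9.08% of Smad3-WT neutrophils (interval 7.50 to 10.9) and 27.3% of Smad3-KO neutrophils (22.6 to 32.3). After each cell was thinned to 500 UMIs, the shares were 6.39% (5.06 to 7.93) and 18.5% (14.5 to 23.0). Free RNA in droplets puts UMIs into cells that do not express a gene, so the share was also read in classes that should lack Tnf. Among LLC carcinoma-like cells of the Smad3-WT library 3.99% held a Tnf UMI at a median of 20650 UMIs per cell, and 0.138% did after thinning. Fibroblast-like cells there held Tnf in 5.43% at a median of 20115 UMIs, and in 0.194% after thinning. Neutrophils of that library had a median of 727 UMIs. Thinning removes far more of the UMIs of such deep cells than of neutrophils, so the thinned shares do not give a like background. Among fibroblast-like cells of the Smad3-KO library 4.48% held a Tnf UMI at a median of 4502 UMIs and none of the 67 did after thinning, and among B cell-like cells, which can make some Tnf, 6.59% did at a median of 1356 UMIs and 1.32% after thinning. Smad3-KO neutrophils had a median of 925 UMIs. The part of free RNA in the neutrophil shares of either library was not tested. Among neutrophils set aside for interferon-response genes, 9.88% of 425 in Smad3-WT and 35.9% of 535 in Smad3-KO held Tnf. They were deeper than the neutrophils kept, with medians of 866 and 1165 UMIs. Thinning brought their shares to 4.71% (interval 2.90 to 7.17) and 20.9% (17.6 to 24.6). Of 48 Smad3-KO neutrophils set aside for granule genes, 20.8% held Tnf, and 6.25% (1.31 to 17.2) after thinning. Their median depth was 2052.5 UMIs. The thinned intervals of these classes overlapped those of the kept neutrophils of the same library.

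**Figure D1:**
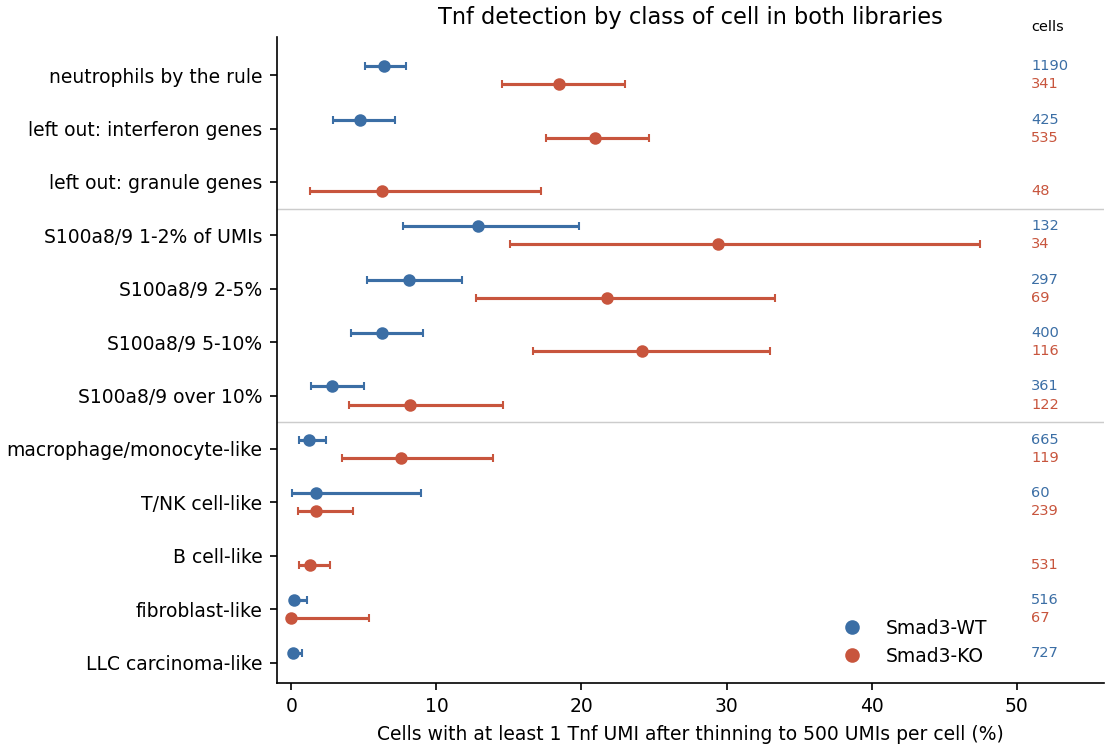
Percentage of cells with at least 1 Tnf UMI after thinning to 500 UMIs per cell, by cell class and library. Bars are exact 95% intervals (counting error only), and classes with under 20 cells are not drawn. Smad3-KO neutrophils stand at 18.5% and Smad3-WT ones at 6.39%, and the carcinoma-like, fibroblast-like and B cell-like classes at 1.32% or less.

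Most members sat at the threshold. Of 108 Smad3-WT Tnf-positive cells 72 held exactly 1 Tnf UMI, 18 held 2 and 18 held 3 or more, with 9 in the highest cell. Of 93 Smad3-KO cells 50 held 1, 20 held 2 and 23 held 3 or more, with 26 in the highest. The cells just inside the Tnf threshold thus outnumbered all others, and a cell just outside it, with 0 UMIs, may hold Tnf mRNA that was not captured. At the S100a8 and S100a9 threshold, Tnf was found in 16.7% of 132 Smad3-WT cells with 1 to 2% of UMIs from these genes and in 12.3% of 57 cells with 0.5 to 1%. The same shares in the Smad3-KO library were 44.1% of 34 and 35.1% of 37 cells. Tnf was least common among cells with over 10% of UMIs from S100a8 and S100a9, at 5.26% in Smad3-WT and 12.3% in Smad3-KO.

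Gene levels were compared between Tnf-positive and Tnf-zero cells of the same library at matched depth, with equal numbers of cells drawn from each depth bin (108 and 108 in Smad3-WT, 93 and 93 in Smad3-KO). Levels are CPM, the UMIs of a gene summed over the cells of a group and scaled to 1000000 UMIs in total. A gene with at least 50 UMIs in the pair of groups is called higher at a ratio of at least 1.5 and lower at a ratio of at most 1/1.5. By this rule 44 of 615 genes were higher in Smad3-WT Tnf-positive cells (7.15%) and 68 were lower (11.1%). In Smad3-KO 69 of 533 were higher (12.9%) and 92 lower (17.3%). The interval left 1 out for 32 of the 44 and 56 of the 69 higher genes. Over the 438 genes measured in both libraries, 10 were higher in both (2.28%) and 13 lower in both (2.97%), and 1, Mapkapk2, was called in opposite directions. The median ratio of all genes was 0.956 in each library. Tnf itself and the other genes of the rule were left out. Because the same cells were picked by Tnf, the ratios describe which mRNAs go with Tnf in these cells and support nothing beyond that.

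Nfkbia was higher in Tnf-positive cells of both libraries, and Tnfaip3, Tnip1, Nfkbiz and Tnfaip2 were higher in Smad3-KO. Nfkbia stood at 2900.1 CPM in Tnf-positive and 1865 CPM in Tnf-zero cells of Smad3-WT, a ratio of 1.56 (interval 1.30 to 1.86), and at 10212 and 6451 CPM in Smad3-KO, a ratio of 1.58 (1.44 to 1.74). Without cells that held another type's genes the ratios were 2.22 and 1.499, the latter just under the call. The level of Nfkbia was higher in Smad3-KO cells of either kind. Tnfaip3 stood at 2046 against 967 CPM in Smad3-KO, a ratio of 2.12 (1.66 to 2.71). In Smad3-WT it had 38 against 11 UMIs, under the minimum of 50, and over all cells without depth matching its ratio there was 2.72 (1.84 to 3.95). Tnfaip3 UMIs were found in 74.2% of Smad3-KO Tnf-positive cells against 46.0% of Tnf-zero cells, and in 23.1% against 8.78% in Smad3-WT. Tnip1, which encodes a partner of A20, had a ratio of 1.91 in Smad3-KO, and Nfkbiz, the nuclear inhibitor-like protein IκBζ, 1.63 there and 1.24 in Smad3-WT. Tnfaip2, a TNF-induced gene, had a ratio of 2.45 (1.80 to 3.37) in Smad3-KO and 1.08 in Smad3-WT. Of all genes, 7.15% were higher and 11.1% lower in Smad3-WT, and 12.9% and 17.3% in Smad3-KO. Of the 15 listed NF-κB subunits and feedback inhibitors, 3 could be measured in Smad3-WT and 1 was higher, with none lower. In Smad3-KO 6 could be measured, 5 were higher and none lower, and the median ratio was 1.77. Nfkbib was the sixth, at 1.37. The subunit genes Nfkb1, Nfkb2, Rela, Relb and Rel, and Nfkbie, Nfkbid, Bcl3 and Zc3h12a, stayed under the UMI minimum in both libraries at matched depth. Over all cells without depth matching, 13 listed genes were measured in Smad3-WT (5 higher, 2 lower, median 1.23). In Smad3-KO 10 were measured there (8 higher, 0 lower, median 1.64), and Nfkb1 was called in opposite directions in the libraries.

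The 250 bases upstream of the RefSeq start of Tnf and of 4 genes described here are shown because their text can be set against the NF-κB and AP-1 motifs that are textbook features of inflammatory promoters. They were read from RefSeq (GRCm38.p6) for Tnf at chr17:35202008-35202257 on the minus strand, Nfkbia at chr12:55492648-55492897 on the minus strand, Cxcl2 at chr5:90903649-90903898 on the plus strand, Il1a at chr2:129309973-129310222 on the minus strand and Icam1 at chr9:21015690-21015939 on the plus strand, each 5′ to 3′ on the gene's strand. Capitals mark matches to 3 motifs, searched on both strands. The NF-κB motif was GGG, any 2 bases and TTTCC, the AP-1 motif was TGANTCA, and the TATA box was read as the letters TATAAA. No match overlapped another in these windows.
Tnf: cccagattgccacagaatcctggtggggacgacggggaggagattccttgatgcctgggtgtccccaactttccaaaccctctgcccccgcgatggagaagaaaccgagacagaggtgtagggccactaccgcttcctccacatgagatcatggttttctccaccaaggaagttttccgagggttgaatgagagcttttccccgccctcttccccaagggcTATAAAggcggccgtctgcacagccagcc
Nfkbia: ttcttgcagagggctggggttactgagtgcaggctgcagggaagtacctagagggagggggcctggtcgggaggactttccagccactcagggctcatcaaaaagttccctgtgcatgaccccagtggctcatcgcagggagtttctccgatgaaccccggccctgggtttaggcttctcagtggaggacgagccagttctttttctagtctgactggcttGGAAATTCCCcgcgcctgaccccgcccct
Cxcl2: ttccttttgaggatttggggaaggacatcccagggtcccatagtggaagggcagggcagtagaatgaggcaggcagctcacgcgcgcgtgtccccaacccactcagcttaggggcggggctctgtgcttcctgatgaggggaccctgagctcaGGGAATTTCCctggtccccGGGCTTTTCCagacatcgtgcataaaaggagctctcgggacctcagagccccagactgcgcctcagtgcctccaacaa
Il1a: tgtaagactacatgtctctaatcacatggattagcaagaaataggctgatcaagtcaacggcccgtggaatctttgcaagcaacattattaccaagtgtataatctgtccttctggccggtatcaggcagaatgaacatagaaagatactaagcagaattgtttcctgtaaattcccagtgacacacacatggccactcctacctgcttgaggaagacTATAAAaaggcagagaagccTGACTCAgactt
Icam1: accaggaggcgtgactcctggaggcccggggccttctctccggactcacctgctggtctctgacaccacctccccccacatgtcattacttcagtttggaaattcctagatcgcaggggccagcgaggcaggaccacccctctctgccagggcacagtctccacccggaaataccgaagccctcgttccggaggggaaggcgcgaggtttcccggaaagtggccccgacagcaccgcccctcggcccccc
The capitals in the Tnf sequence are the TATA box, which begins 29 bases before the start. Those in Nfkbia are the NF-κB motif on the other strand, beginning at the same distance, and those in Cxcl2 are 2 matches to it, 97 and 78 bases before the start. Il1a holds the TATA box at 32 and the AP-1 motif at 12 bases before its start. Icam1 has no capitals, since none of the motifs was found in its window, and none was found in the windows of Ccl3 and Ccrl2 either. Among all 27025 genes with a promoter in the table, 1.65% held the NF-κB motif, 7.82% the AP-1 motif and 14.3% the TATA box. Of the 10 genes higher in both libraries 9 had a promoter in the table. Nfkbia held the NF-κB motif, Bcl2a1b, Gbp2 and Sema4d held the AP-1 motif, and none held the TATA box. Of the 13 genes lower in both, 7 had a promoter in the table and none held any of these motifs. The absence of a match says only that these letters are not in the window.

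Among TNF ligands, receptors and adaptors, the Smad3-KO cells showed higher Cflar, Traf1 and Tnfrsf1b. Cflar, the caspase-8 inhibitor c-FLIP, stood at 878 CPM in Tnf-positive and 316 CPM in Tnf-zero Smad3-KO cells, a ratio of 2.78 (1.85 to 4.27). Traf1, an adaptor that binds TNFR2, had a ratio of 1.87 (1.12 to 3.20), which was 0.898 with S100a8 and S100a9 at 3% or more, and Tnfrsf1b one of 1.504 (1.16 to 1.96). In Smad3-WT the Tnfrsf1b ratio was 1.38 (0.829 to 2.33), and Cflar had 23 against 22 UMIs. The ligand Ltb, lymphotoxin β, was higher in Smad3-WT at 1.69, and Tnfrsf1a was lower there at 0.621 with an interval that reached 1.05, and at 1.30 with at least 2 Tnf UMIs. Adam17 at 1.06 and Birc3, a ubiquitin ligase of the receptor complex, at 0.851 were measured in Smad3-KO and were neither higher nor lower. Of the 21 listed genes 3 were measured in Smad3-WT (1 higher, 1 lower, median ratio 1.38) and 5 in Smad3-KO (3 higher, 0 lower, median 1.504). Of all genes, 7.15% were higher and 11.1% lower in Smad3-WT, and 12.9% and 17.3% in Smad3-KO. Besides Tnf itself, Lta, Rhbdf2, Tradd, Ripk1, Traf2, Birc2, Fadd, Casp8, Map3k7, Tab2, Ikbkb, Ikbkg and Map3k8 were under the minimum in both libraries.

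Ccl3 and Ccl4, chemokines that draw in monocytes, T cells and NK cells, were higher in both libraries. Ccl4 stood at 10178 CPM in Tnf-positive and 5502 CPM in Tnf-zero cells of Smad3-WT, a ratio of 1.85 (1.67 to 2.05), and at 17284 and 5216 CPM in Smad3-KO, a ratio of 3.31 (3.01 to 3.65). Ccl3 stood at 10287 and 6219 CPM in Smad3-WT, a ratio of 1.65 (1.503 to 1.82), and at 17629.6 and 7360.5 CPM in Smad3-KO, a ratio of 2.40 (2.20 to 2.61). The share of cells with a Ccl4 UMI was 61.1% against 51.2% in Smad3-WT and 86.0% against 56.5% in Smad3-KO, so more Tnf-positive cells held Ccl4 in each library. Without depth matching the ratio was 1.24 in Smad3-WT and 2.19 in Smad3-KO for Ccl4, and 1.42 and 2.15 for Ccl3, so that neither was called in Smad3-WT. All 1082 Smad3-WT Tnf-zero cells stood at 8217 CPM for Ccl4 and 7258 CPM for Ccl3, above the 108 drawn for matching. The intervals do not cover this draw of cells. Among cells with at least 2 Tnf UMIs the Ccl4 ratio was 0.646 in Smad3-WT, where the direction turned, and 2.26 in Smad3-KO. Cxcl2 and Cxcl3, the neutrophil attractants that bind CXCR2, had ratios of 1.36 and 1.25 in Smad3-WT and of 1.55 and 1.36 in Smad3-KO, so that only Cxcl2 in Smad3-KO was called. Cxcl2 was found in 94.4% of Smad3-WT Tnf-positive and 95.4% of Tnf-zero cells, and in 100% and 95.6% in Smad3-KO. Ccl6 had a ratio of 0.940 in Smad3-WT and 0.595 in Smad3-KO (1.02 there with no interferon or granule limit), and Ccl9 was higher in Smad3-WT at 1.55. Ccl5 was listed at 0 UMIs in both sets of Tnf-positive cells, and 169 of its 215 UMIs in Smad3-KO Tnf-zero cells lay in 1 cell. Of 16 listed chemokines 6 were measured in each library, with 3 higher and 0 lower in Smad3-WT and 3 higher and 2 lower in Smad3-KO, and medians of 1.45 and 1.46. Of all genes, 7.15% were higher and 11.1% lower in Smad3-WT, and 12.9% and 17.3% in Smad3-KO. Over all cells without depth matching 10 chemokines were measured in Smad3-WT (1 higher, 2 lower, median 1.14). In Smad3-KO 6 were (3 higher, 2 lower, median 1.51).

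Receptors for chemoattractants divided. Ccrl2, an atypical receptor that binds chemerin, was higher in both libraries, at 2.11 (1.58 to 2.84) in Smad3-WT and 1.56 (1.32 to 1.83) in Smad3-KO, and was found in 84.9% of Smad3-KO Tnf-positive cells against 52.0% of Tnf-zero cells. Without cells that held another type's genes its ratios were 3.35 and 1.41, the latter under the call. Fpr2, a formyl peptide receptor, had ratios of 1.37 and 1.74, and Ptafr, the receptor for platelet-activating factor, 1.26 and 1.68. Cxcr2, which brings neutrophils out of the marrow and into tissue, was lower in both, at 0.611 (0.430 to 0.862) in Smad3-WT and 0.665 (0.410 to 1.06) in Smad3-KO. With at least 2 Tnf UMIs Cxcr2 was at 1.13 in Smad3-KO, where the direction turned, and at 0.499 in Smad3-WT. The median ratio of the receptor list was 1.06 over 9 genes and 1.01 over 7.

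**Figure D2:**
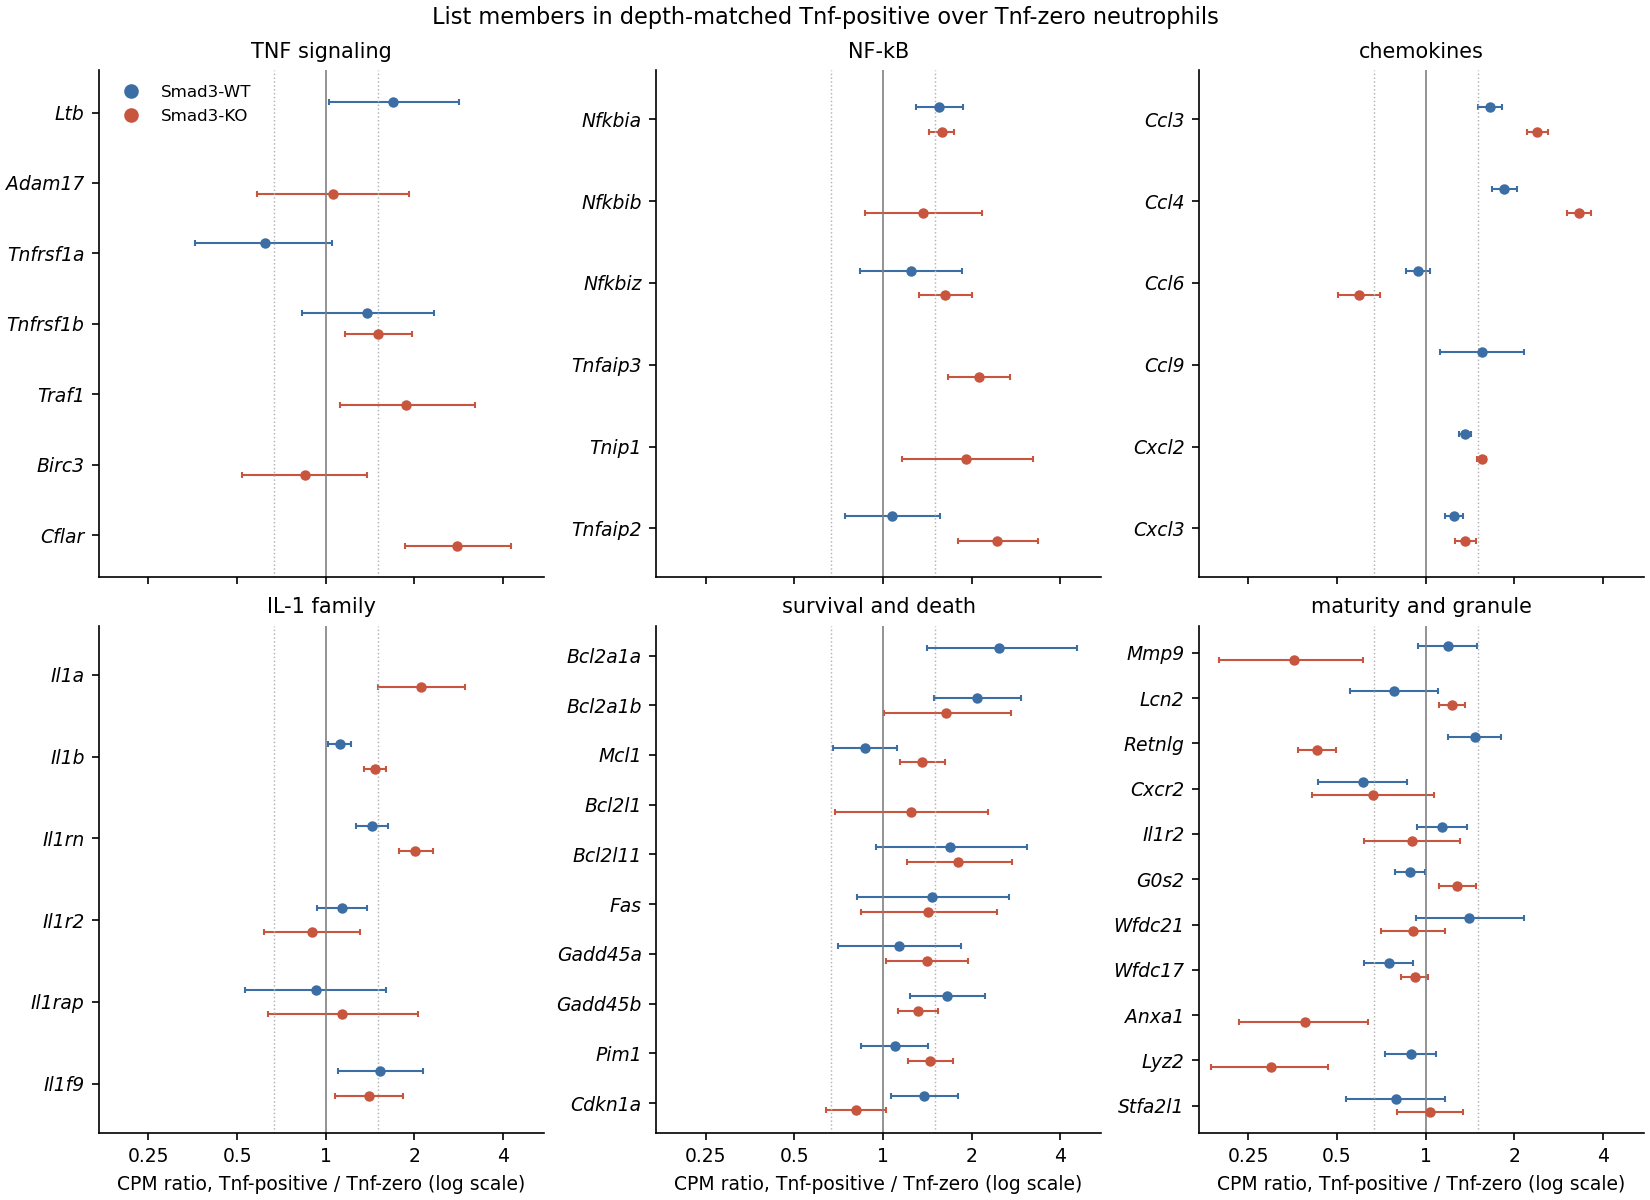
CPM ratio of Tnf-positive over Tnf-zero neutrophils at matched depth (log axis) for members of the gene lists with at least 50 UMIs, by library, with exact 95% intervals (counting error only) and dotted lines at 1.5 and 1/1.5; Tnf, which chose the cells, and Ccl5, with 0 UMIs in Tnf-positive cells, are not drawn. Ccl4 lies at 1.85 and 3.31 and Nfkbia at 1.56 and 1.58, while Cxcr2 lies at 0.611 and 0.665.

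In the interleukin-1 family Il1a and Il1rn were higher in Smad3-KO Tnf-positive cells, with Il1b below the call. Il1a stood at 1046 against 498 CPM in Smad3-KO, a ratio of 2.10 (1.5001 to 2.98), and in Smad3-WT had 15 against 3 UMIs at matched depth and a ratio of 3.55 (1.81 to 6.65) over all cells. Il1rn, the IL-1 receptor antagonist, had ratios of 1.44 (1.26 to 1.63) in Smad3-WT and 2.02 (1.77 to 2.31) in Smad3-KO. Il1b, whose level was 9184 CPM in Smad3-WT and 12323 CPM in Smad3-KO Tnf-positive cells, had ratios of 1.11 and 1.47 and was higher by the rule in neither. Il1f9, which encodes IL-36γ, had ratios of 1.53 and 1.40, and 0.938 in Smad3-WT with S100a8 and S100a9 at 3% or more. Among growth factors, Csf3 (G-CSF) was higher in Smad3-KO at 3.12 (1.87 to 5.45), with a ratio of 1.47 over all cells and a single UMI in Smad3-WT Tnf-positive cells, and Csf1 was higher in Smad3-WT at 1.76 (1.28 to 2.45). Irak2, a kinase of the IL-1 and Toll-like receptor pathway, was among the genes higher in both, at 1.54 (0.850 to 2.85) and 1.95 (1.11 to 3.52). In Smad3-WT it was under 1 in 3 other settings, at 0.847 to 0.992, and it reached 1.5 in 14 of 30 values over both libraries.

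Icam1 was higher in Tnf-positive cells of both libraries when all cells were used. Its Smad3-WT ratio without depth matching was 6.45 (3.91 to 10.5), and at matched depth it had 31 against 8 UMIs there. In Smad3-KO it stood at 617 against 230 CPM, a ratio of 2.68 (1.66 to 4.48), and 3.10 without matching. Cd274, which encodes PD-L1, had ratios of 1.14 and 1.15, and the adhesion molecule gene Cd44 1.09 and 1.14. Fas, the death receptor and another N1 mark, had ratios of 1.47 (0.816 to 2.68) and 1.43 (0.844 to 2.45), below the call in both.

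Of the genes of survival and death, 8 of 9 measured had ratios above 1 in each library, with medians of 1.47 and 1.41, against 272 of 615 and 244 of 533 of all genes. In Smad3-WT 4 were higher and in Smad3-KO 2, against 7.15% and 12.9% of all genes, and none was lower in either. Bcl2a1b, an anti-apoptotic BCL-2 relative, was higher in both, at 2.08 (1.49 to 2.94) and 1.64 (1.01 to 2.72), and Bcl2a1a at 2.48 in Smad3-WT. These genes are near-identical copies, so how UMIs were divided among them is uncertain. Bcl2l11, which encodes the death-promoting protein BIM, was also higher in both, at 1.69 (0.944 to 3.09) and 1.80 (1.20 to 2.73), and at 1.17 and 1.57 without cells that held another type's genes, under the call in Smad3-WT. Mcl1, on which neutrophil survival depends, had ratios of 0.871 and 1.36, Gadd45b 1.65 and 1.31, and the kinase gene Pim1 1.10 and 1.45.

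Genes of innate sensing were higher in part. Clec4e, the glycolipid receptor Mincle, had ratios of 1.14 and 1.81 (1.62 to 2.03), and Nlrp3, an inflammasome sensor, 1.68 and 1.36, with 0.964 in Smad3-WT when no interferon or granule limit was set. Acod1, which makes itaconate, had ratios of 1.37 and 1.91, and Ptgs2, the cyclooxygenase COX-2, 1.18 and 1.35. Of the listed inflammatory enzymes, 9 were measured in Smad3-WT (1 higher, 2 lower, 3 above 1, median 0.823). In Smad3-KO 10 were measured (2 higher, 0 lower, 6 above 1, median 1.18). Of all genes, 7.15% were higher and 11.1% lower in Smad3-WT, and 12.9% and 17.3% in Smad3-KO. AP-1 and immediate early genes did not follow as a group, with medians of 1.09 over 15 genes and 1.07 over 16. Of these, 1 was higher and 0 lower in Smad3-WT, and 2 were higher and 1 lower in Smad3-KO. Fos had ratios of 1.07 and 0.697 and Fosl2 0.711 and 0.547, the last at 1.22 with at least 2 Tnf UMIs. Interferon-stimulated genes outside the rule had medians of 0.909 and 0.990 over 6 genes each, with 1 higher in Smad3-WT, 2 higher in Smad3-KO and 0 lower in either. Gbp2, an interferon-induced GTPase, was higher in both, at 5.85 (2.86 to 13.5) in Smad3-WT and 1.54 (0.919 to 2.62) in Smad3-KO. In Smad3-WT 21 of its 53 UMIs came from 1 cell and 14 cells held any. The remaining genes higher in both were Mpeg1, which encodes perforin-2 of phagocytes, at 1.72 (1.04 to 2.90) and 1.79 (1.06 to 3.08), and Sema4d, a semaphorin, at 1.64 (0.913 to 3.01) and 1.64 (0.943 to 2.92). Without cells that held another type's genes Mpeg1 was at 1.07 and 1.40, under the call in both libraries, and Gbp2 at 4.41 and 1.48. Below the call in at least 1 library, but next in rank by the smaller of their ratios, were Slfn2 at 1.48 and 1.45, Plek at 1.41 and 1.60 and Hilpda, a lipid droplet gene of hypoxia, at 1.60 (0.779 with S100a8 and S100a9 at 3% or more) and 1.40, besides Il1rn and Fas.

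**Figure D3:**
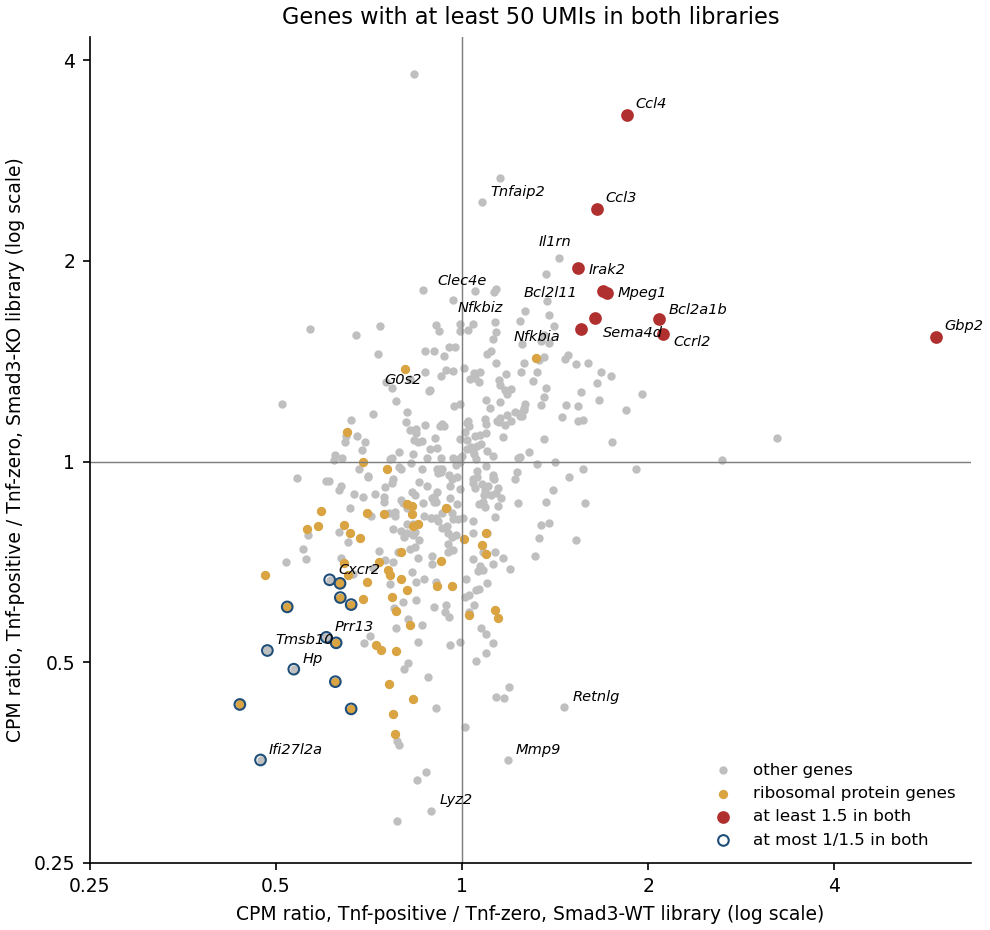
CPM ratio of Tnf-positive over Tnf-zero neutrophils in the Smad3-WT library (horizontal, log axis) and the Smad3-KO library (vertical, log axis) for 438 genes with at least 50 UMIs in both; red points are the 10 genes higher in both and blue rings the 13 lower in both. Ccl4 lies highest among the red points at 3.31 in Smad3-KO, and ribosomal protein genes (ochre) lie mostly below 1 on both axes.

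Ribosomal protein genes took 3.76% of UMIs in Smad3-WT Tnf-positive cells against 4.98% in matched Tnf-zero cells, and 2.91% against 4.33% in Smad3-KO, and 48 of 58 such genes had ratios below 1 in both libraries, against 180 of all 438 genes. Without neutrophils that held 5 or more UMIs of another cell type's genes, the ratio of these shares was 0.959 in Smad3-WT and 0.434 in Smad3-KO, and with S100a8 and S100a9 at 3% or more it was 1.08 (1.02 to 1.13) and 0.624, so the Smad3-WT direction turned there. In Smad3-KO the ribosomal level was 42203 CPM in the 50 cells with 1 Tnf UMI against 41736 CPM in Tnf-zero cells, and 18372 and 12674 CPM in cells with 2 and with 3 or more. Of the 13 genes lower in both, 8 encode ribosomal proteins, with Rps7 at 0.437 and 0.432. The other 5 were Cxcr2, Hp (haptoglobin, a granule protein) at 0.535 and 0.488, Ifi27l2a at 0.472 and 0.357, Prr13 at 0.603 and 0.545, and Tmsb10 at 0.485 and 0.521. With S100a8 and S100a9 at 3% or more Rps7 was at 1.33 and Tmsb10 at 1.31 in Smad3-WT, and with at least 2 Tnf UMIs Prr13 was at 1.06 and Cxcr2 at 1.13 in Smad3-KO. Tmsb10, an actin-binding peptide gene, was found in 9 of 93 Smad3-KO Tnf-positive cells, and its top cell held 28 of 56 UMIs. In Smad3-WT it was found in 37.0% of Tnf-positive against 27.4% of Tnf-zero cells, the other way from its ratio. Over all cells without depth matching that ratio was 0.730, outside the call. Without cells that held another type's genes Tmsb10 was at 0.697 in Smad3-WT, outside the call, and at 0.0403 in Smad3-KO. Prr13 was then at 0.730 and 0.757, outside the call in both libraries, while Cxcr2, Hp and Ifi27l2a stayed lower in both. Of the granule and maturity genes 5 of 11 were lower in Smad3-KO and 1 of 10 in Smad3-WT, against 17.3% and 11.1% of all genes, so the Smad3-WT count lay near that share. None was higher in either, the medians were 0.897 and 0.889, and the difference between the libraries was not tested. Over all cells without depth matching 7 of 12 were lower in Smad3-KO (median 0.588). In Smad3-WT 0 of 14 were lower there and 1 was higher (median 0.872). At matched depth in Smad3-KO Lyz2 (lysozyme) had a ratio of 0.299 (0.187 to 0.466), Mmp9 (gelatinase B) 0.357 (0.199 to 0.613) and Retnlg 0.428 (0.370 to 0.495), while in Smad3-WT they stood at 0.891, 1.19 and 1.46, the last with 105 of the 239 Retnlg UMIs in 1 cell.

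The remaining lists moved little or in 1 library. Glycolysis and hypoxia genes had medians of 0.944 and 0.868, with Gapdh at 0.840 and 0.891. In Smad3-WT 4 of 8 stress genes were higher, against 7.15% of all genes, and 0 were lower. The 4 included Hsp90aa1 at 2.55 and Hspa1a at 7.87, but 65 of the 103 Hspa1a UMIs lay in 1 cell and 7 cells held any. In Smad3-KO 4 stress genes were measured, with 0 higher and 1 lower and a median of 1.23. Csf3r had ratios of 0.804 and 0.867. In Smad3-KO the antigen presentation genes H2-Aa, H2-Ab1 and Cd74 had ratios of 4.22, 6.29 and 2.66. They went with a few cells, since the dendritic list, led by Cd74, had 346 UMIs in 14 of the 93 cells with 225 in a single cell. Without the 8 Tnf-positive and 11 Tnf-zero Smad3-KO cells with 5 or more UMIs of another type's genes, the Cd74 ratio was 0.658. With at least 2 Tnf UMIs H2-Aa was at 0.905 and H2-Ab1 at 0.988. Markers of LLC carcinoma were at 0 CPM in the Tnf-positive cells of both libraries, against 29.9 CPM in Smad3-WT and 0 in Smad3-KO Tnf-zero cells. Those of macrophages and monocytes were at 155 against 312 CPM in Smad3-WT and 439 against 369 CPM in Smad3-KO. B cell markers were at 36.5 against 54.5 CPM in Smad3-WT and 215 against 112 CPM in Smad3-KO, where 2 cells of each kind held 5 or more of their UMIs. Fibroblast markers were at 54.7 against 216 CPM in Smad3-WT and 18.7 against 854 CPM in Smad3-KO, where 148 of the 206 UMIs of Tnf-zero cells lay in 1 cell and both measured genes of the list were lower. Without the cells that held another type's genes, 4 genes were higher and 6 lower in both libraries. No doublet caller was run, and the part of doublets in these values was not tested beyond leaving those cells out.

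Levels were then read against the number of Tnf UMIs per cell, a description in which deeper cells weigh more toward the upper classes. Icam1 stood at 43.8, 157, 275 and 699 CPM in Smad3-WT cells with 0, 1, 2 and 3 or more Tnf UMIs, and at 199, 435, 315 and 1179.8 CPM in Smad3-KO cells. Nfkbia stood at 6064, 7505, 11527 and 14259 CPM in Smad3-KO, and Ccl3 at 8198, 14485, 17381 and 23664 CPM. Nfkbia and Ccl3 in Smad3-KO were thus higher at each step. The Icam1 levels of cells with 1 and 2 Tnf UMIs rested on 11 and 5 UMIs in Smad3-WT (intervals 78.4 to 281 and 89.3 to 642 CPM) and on 24 and 7 in Smad3-KO, so their order cannot be read. In Smad3-WT the steps of Nfkbia were 1831, 2899.8, 3519 and 2377 CPM, and Ccl3 stayed between 10063 and 10672 CPM in all cells with Tnf, above the 7258 CPM of cells without it. Ccl4 in Smad3-WT stood at 8217, 11128, 3354 and 12862 CPM, low in the 18 cells with 2 Tnf UMIs and above the Tnf-zero level in the other classes. Tnfaip3 in Smad3-KO stood at 953, 1668, 2206 and 2629 CPM and Il1a at 497, 526, 1486 and 1685 CPM, so that Il1a differed little between 0 and 1 Tnf UMI. Cxcr2 stood at 539 CPM in Smad3-KO cells without Tnf and between 290.1 and 315 CPM in those with it. The median depth of these classes was 724.5, 760, 740 and 784 UMIs in Smad3-WT and 896.5, 978.5, 1007.5 and 1240 UMIs in Smad3-KO.

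**Figure D4:**
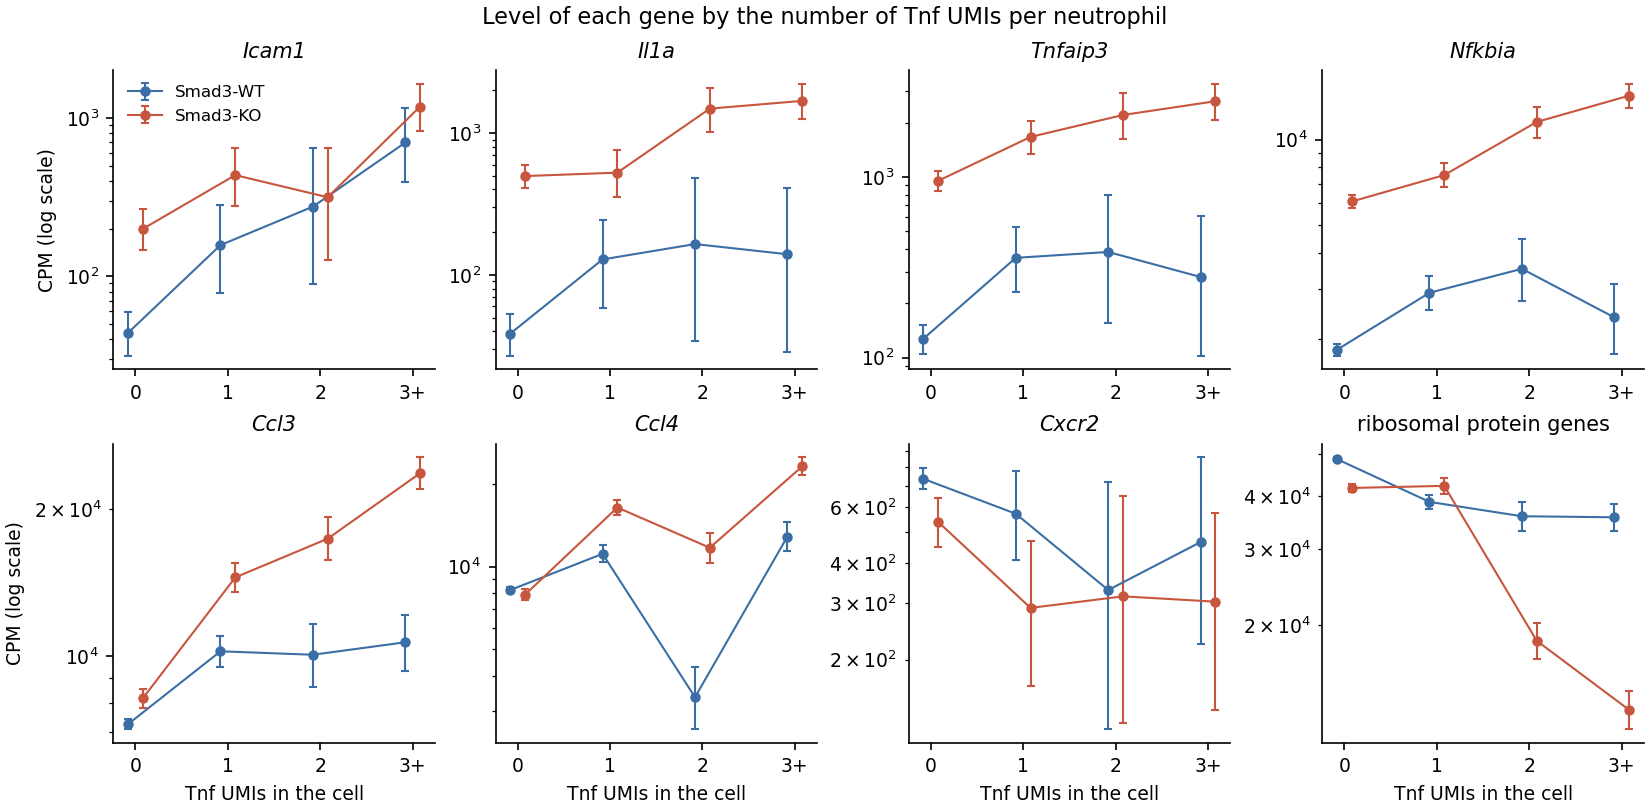
CPM (log axis) of named genes in neutrophils with 0, 1, 2 and 3 or more Tnf UMIs, by library, with exact 95% Poisson intervals (counting error only). In Smad3-KO, Nfkbia climbs from 6064 to 14259 CPM and Ccl3 from 8198 to 23664 CPM. Cxcr2 there stands at 539 CPM in cells without Tnf and between 290.1 and 315 CPM in those with it.

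Tnf-positive cells of Smad3-KO were finally compared with those of Smad3-WT, with 55 cells of each at matched depth (median 1045 and 1031 UMIs), and the same was done for 248 Tnf-zero cells of each. Of 348 genes measured in Tnf-positive cells, 79 were higher in Smad3-KO (22.7%) and 106 lower (30.5%). In Tnf-zero cells 191 of 1131 genes were higher (16.9%) and 298 lower (26.3%). Over the 348 genes, 51 were higher in both kinds of cell, 64.6% of those higher in Tnf-positive and 79.7% of those higher in Tnf-zero cells, and 66 were lower in both, 62.3% and 85.7%. Both comparisons come from the same pair of libraries.

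Tnfaip3, Il1a, Lcn2 and Cd274 were much higher in Smad3-KO whether or not a cell held Tnf. Lcn2, the iron-binding granule protein lipocalin 2, stood at 8074 CPM in Smad3-KO and 640.3 CPM in Smad3-WT Tnf-positive cells, a ratio of 12.6 (9.17 to 17.8), and its ratio was 8.96 in Tnf-zero cells. Il1a had ratios of 12.8 (5.19 to 40.6) in Tnf-positive and 15.05 (7.397 to 35.7) in Tnf-zero cells, with 5 and 8 UMIs in the Smad3-WT cells. Tnfaip3 had ratios of 6.86 (4.17 to 12.0) and 6.24, Cd274 5.33 (3.28 to 9.07) and 3.42, and Tnfrsf1b 4.28 (2.61 to 7.36) and 4.16. Nfkbia, at 3.26 (2.76 to 3.87) and 3.05, and Nfkbiz, at 4.22 and 2.66, were higher in both kinds of cell too. Among the 10 highest ratios of genes with at least 100 UMIs were also Slpi, an inhibitor of neutrophil proteases, at 6.02 and 3.51, and Ifrd1 at 4.37 and 3.35. H2-Aa, Cd74 and the retrogene Gm3839 were the others, but H2-Aa had 1 and Gm3839 2 UMIs in the Smad3-WT cells, and Cd74 had ratios of 6.52 and 0.620. Ccl3 and Ccl4 had ratios of 1.48 (1.34 to 1.63) and 1.53 (1.39 to 1.69) in Tnf-positive cells against 1.12 (1.05 to 1.19) and 0.933 (0.876 to 0.994) in Tnf-zero cells. Icam1 had ratios of 1.88 (1.03 to 3.54) in Tnf-positive and 5.35 (2.60 to 12.4) in Tnf-zero cells. Whether the library difference itself depends on Tnf was not tested.

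Lower in Smad3-KO Tnf-positive cells were Clec4n, the fungal receptor Dectin-2, at 93.3 against 2998 CPM, a ratio of 0.0311 (0.0113 to 0.0690), with 0.0127 in Tnf-zero cells. Mmp9 had a ratio of 0.118 (0.0592 to 0.216) in Tnf-positive and 0.463 (0.376 to 0.568) in Tnf-zero cells, and Lyz2 0.158 (0.0934 to 0.255) and 0.661 (0.549 to 0.795). The other genes among the 10 lowest ratios of those with at least 100 UMIs were Txnip at 0.0924 and 0.252, Slfn1 at 0.191 and 0.283, Cdk2ap2 at 0.195 and 0.484, Fxyd5 at 0.228 and 0.415, Ccl6 at 0.254 and 0.318, Il1r2 at 0.267 and 0.404, and Tyrobp, a signaling adaptor of myeloid receptors, at 0.269 and 0.389. All 10 were below 1 in both kinds of cell.

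**Figure D5:**
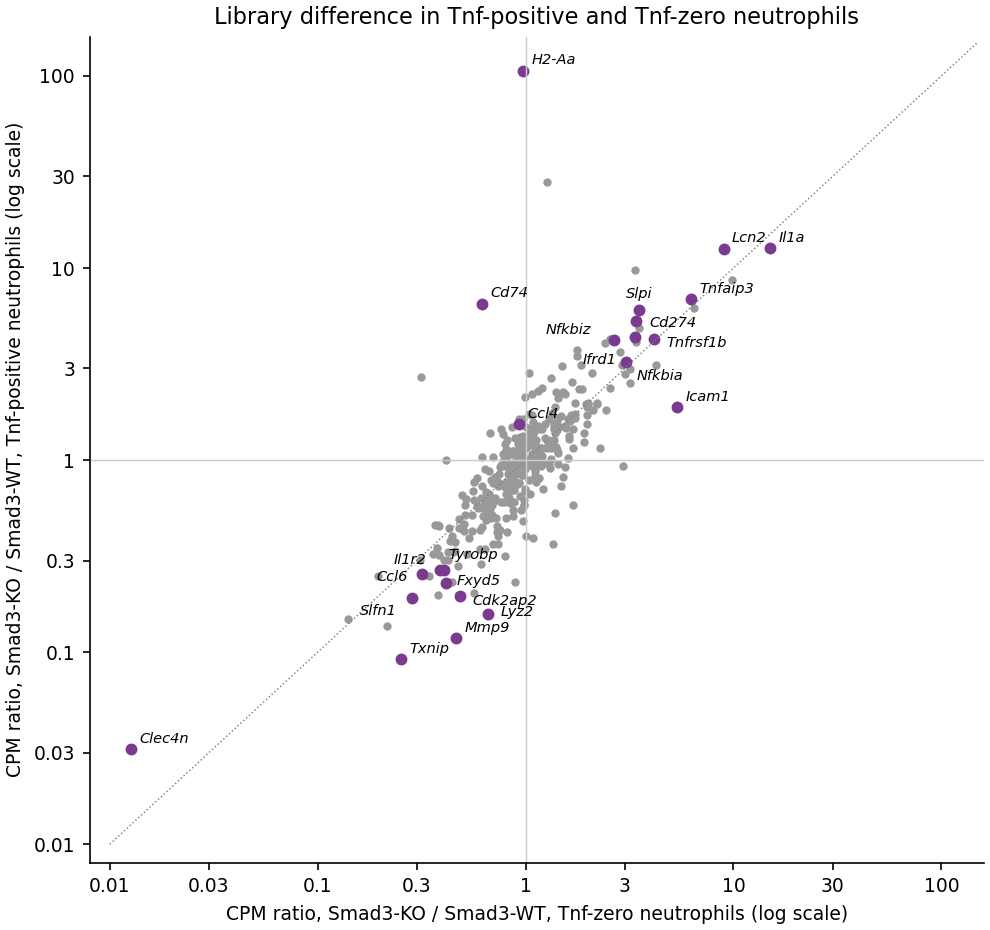
CPM ratio of Smad3-KO over Smad3-WT in Tnf-zero neutrophils (horizontal, log axis) and Tnf-positive neutrophils (vertical, log axis) for 347 genes, with equal values on the dotted line; Gm3839, with 0 UMIs in Smad3-WT Tnf-zero cells, is not drawn. Lcn2 and Tnfaip3 lie near the line far above 1, Clec4n far below 1, and Cd74 and H2-Aa, which rest on few cells, stand off it.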

How the data were processed

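The authors deposited raw counts of UMIs per gene and barcode, made with Cell Ranger 3.0.2 (per the file header) from a 5′ 10x library, with mm10 named in the submitters' processing notes. The deposited averages per library are a signal (the share of a library's UMIs times 1311), used here only to match barcode suffixes to libraries. The deposited log2 fold changes, p-values and cluster averages are the authors' own comparisons and were not used.

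Members and lists were chosen with earlier results of these data known. The study's upper limit of UMIs per cell was not applied. Depth bins were 0.25 wide in log2 UMIs without Tnf (seed 1). Ratios of CPM have exact binomial intervals and shares Clopper-Pearson intervals. Other cell classes needed 5 or more UMIs of their marker genes. No doublets were removed. Named genes were the TNF and NF-κB lists, examples from the other lists, the genes with the 15 highest and 15 lowest ratios shared by the libraries, and the 10 highest and 10 lowest ratios of Smad3-KO over Smad3-WT among genes with at least 100 UMIs. Ribosomal protein genes among them were summarized. Xist, Ddx3y and Smad3 were added to check the labels. Intervals were tested only on simulated Poisson counts, the model they assume. Those counts leave out the gathering of UMIs in single cells, such as that of Hspa1a and Retnlg. Values were computed in Python 3.11.15 with pandas 2.3.3, scipy 1.17.1, matplotlib 3.10.9 and numpy 2.4.6.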

Additional observations from a re-analysis of the deposited data

Results flagged for a closer look

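Among the genes described with their ratios, 2 went in opposite directions in the libraries, with both intervals leaving out 1. The ratio of Retnlg in Tnf-positive over Tnf-zero cells was 1.46 in Smad3-WT and 0.428 in Smad3-KO, and that of G0s2, a regulator of lipid breakdown, was 0.887 and 1.28. The difference between the libraries was not tested for either gene. In Smad3-WT 105 of the 239 Retnlg UMIs of Tnf-positive cells came from 1 cell, and Retnlg was found in 24.1% of Tnf-positive against 36.7% of Tnf-zero cells.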

How the results depend on the processing

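Genes higher and lower in Smad3-WT, genes higher and lower in Smad3-KO, genes higher and lower in both libraries, and genes higher and lower in Smad3-KO over Smad3-WT Tnf-positive cells numbered 44, 68, 69, 92, 10, 13, 79 and 106. Of 2022 values of single genes under 15 settings, 22 reversed and 303 moved. With another seed for the depth-matched draw, 25 values of single genes moved, 0 reversed and 110 stayed the same. At a minimum of 20 UMIs the counts of genes above were 177, 201, 176, 250, 33, 41, 184 and 288, and at 200 UMIs 8, 7, 19, 12, 4, 1, 19 and 19. Thinned to 500 UMIs they were 25, 26, 39, 30, 5, 3, 35 and 40. Without depth matching, genes higher in Smad3-WT numbered 243, lower 288, lower in Smad3-KO 159, lower in both 28, and 120 and 184 between genotypes. With at least 2 Tnf UMIs, genes lower in Smad3-WT numbered 34, lower in Smad3-KO 46, and 23 and 20 between genotypes, and the shares of Tnf-positive cells were 3.03% and 12.6%. The shares at the main threshold, 9.08% and 27.3%, were 6.39% and 18.5% after thinning.

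With S100a8 and S100a9 at 3% or more, 32 genes were lower in Smad3-WT, 23 higher and 48 lower in Smad3-KO, 2 higher and 4 lower in both, and 68 lower between genotypes. With no interferon or granule limit, 42 were lower in Smad3-WT, 155 higher and 220 lower in Smad3-KO, 6 higher and 5 lower in both, and 172 and 241 between genotypes. Without the deepest 5% of cells, 41 were lower in Smad3-WT and 4 higher in both. Without cells that held another type's genes, 40 were lower in Smad3-WT, 4 higher and 6 lower in both. With no UMI of other lineages 5 were higher in both, and 5 were lower in both with totals without mitochondrial and ribosomal genes and 6 with S100a8 and S100a9 at 0.25% or more. Of 14 lists, 10 had a median above 1 in both libraries, 4 with S100a8 and S100a9 at 3% or more and 6 at 200 UMIs. This setting at 0.25% and the one without other types' cells were chosen after seeing the data.

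Ratios that reversed were, with at least 2 Tnf UMIs, Ccl4 0.646 and Tnfrsf1a 1.30 in Smad3-WT, and Cxcr2 1.13, Fosl2 1.22, Prr13 1.06, H2-Aa 0.905 and H2-Ab1 0.988 in Smad3-KO. With S100a8 and S100a9 at 3% or more they were Hilpda 0.779, Il1f9 0.938, Ldha 1.002, Rps7 1.33 and Tmsb10 1.31 in Smad3-WT, and H2-Ab1 0.984 and Traf1 0.898 in Smad3-KO. Irak2 in Smad3-WT was 0.964 and Tnfrsf1a 1.002 with no UMI of other lineages, and Irak2 was 0.992 with the 0.25% limit. With no interferon or granule limit Irak2 was 0.847 and Nlrp3 0.964 in Smad3-WT, and Ccl6 1.02 and Fosl2 1.004 in Smad3-KO. Without other types' cells Cd74 was 0.658 in Smad3-KO. The causes were not tested. Of the 10 genes higher in both, Irak2 was above 1 in 27 and Ccl4 in 29 of 30 values, and the other 8 in 30. A ratio of at least 1.5 was reached in 14 of 30 values by Irak2 and in 21 to 25 by the other 9.

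No paired analysis was possible because the genotypes share no second pair of libraries, and for the same reason leaving out a replicate was not run. Tnf-positive and Tnf-zero cells were compared within each library, and a fit that pairs them over both libraries was not run. Depth limits the rest: at a median of 772 and 1059 UMIs per Tnf-positive cell, the UMI minimum left out most listed genes.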
